A study of Mus musculus with 8 samples.

Results

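The 34 genes described here carry out chromosome duplication and cell division: 20 act in mitosis and 14 act in DNA replication. They were taken by gene symbol from the 37074 distinct gene names on the array. The array held 63 probes for them, of which 52 passed the detection filter, and 33 of the 34 genes could be tested. Bub1, a kinase of the spindle checkpoint, could not, because the better of its 2 probes was well above background on only 2 arrays of each genotype.

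RNA labelled as peritoneal macrophage RNA was hybridised to 8 one-colour Agilent arrays, 4 from wild-type (wt) mice and 4 from Card9-/- mice. Card9 is an adaptor protein that carries the signal of fungal cell wall receptors, and zymosan is a yeast cell wall preparation. Mice of both genotypes were given zymosan into the peritoneum, 500 mg/kg for 4 h, so no array shows untreated cells. By the labels, cells were drawn out with 1 ml of 3% thioglycolate and collected after 4 days, pellets of 4 or 5 mice per group were pooled, and cells that adhered within 3 h were kept. The labels give no strain, age or sex, do not say whether the deletion is confined to a cell type, and do not say whether the 4 arrays of a group came from separate pools. The p-values therefore measure the spread between these arrays, which may be technical.

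Before DNA can be copied, Cdc6 and Cdt1 load the MCM helicase ring on replication origins, and geminin, encoded by Gmnn, holds Cdt1 back so that each origin fires once per cycle. Pcna is the sliding clamp of the DNA polymerases, and ribonucleotide reductase, thymidylate synthase and thymidine kinase supply the nucleotides. Cyclins A and B with Cdk1 then drive the cell into mitosis, kinesins and kinetochore proteins move the chromosomes, and the anaphase-promoting complex ends it by marking the cyclins for destruction. Most inflammatory macrophages descend from blood monocytes and divide little, whereas resident peritoneal macrophages can renew themselves by division.

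The labels were checked first. The brighter Card9 probe cleared background (the scanner software's call of well above background) on 3 of the 4 wt arrays and on none (0 of 4) of the Card9-/- arrays, but the library labelled wt replicate 1 stood with the Card9-/- arrays, at -6.21 against -3.66, 1.48 and -0.67 for the other wt arrays and -5.93 to -4.77 for Card9-/-. The dimmer Card9 probe cleared background on 2 wt and 0 Card9-/- arrays. On it Card9-/- replicate 4, at -3.40, lay above every wt array but wt replicate 3, at -1.42. Which part of Card9 was deleted is not given in the labels. For the Y-linked genes Eif2s3y, Ddx3y and Uty, 1 or 2 probes each cleared background on all 4 arrays labelled Card9-/- and on 0 of the 4 labelled wt, 1 further probe each for Ddx3y and Uty cleared it on no array (0 of 8), and Xist was bright in wt alone, so sex and genotype cannot be told apart here. Resident peritoneal macrophage markers split the wt group: the summed signal of the 18 listed genes, in multiples of each array's 75th percentile, was 22.1 in the library labelled wt replicate 1 and 47.9 in wt replicate 2, but 2973 and 924 in wt replicates 3 and 4, and 51.9 to 116 in Card9-/-. Gata6, which defines resident peritoneal macrophages, cleared background on 2 wt and 1 Card9-/- array, and the receptor Mertk on 2 and 0. Others of the list, among them Csf1r, Adgre1 and Cd68, cleared background on all 8 arrays. Each array had at least 12 of the 18 above background, not always the same genes, so what differed was mainly the amount of signal. The library labelled wt replicate 1 and wt replicate 2 correlated at r = 0.985 over the 18605 genes tested, against 0.822 to 0.921 for the other wt pairs. All 4 wt arrays and Card9-/- replicate 4 lay on slide 1, Card9-/- replicates 1 and 3 on slide 2, and Card9-/- replicate 2 on slide 3. Between 47.8% and 56.5% of spots were well above background on each array, and the number of arrays limits the precision.

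Levels are given below as log2 processed signal relative to the array's 75th percentile, which sits at 0, and a difference is the mean Card9-/- level minus the mean wt level. Values of a genotype follow the order of replicates 1 to 4. No member passed the test between genotypes: 0 of 33 had an adjusted p at or under 0.05 by limma with Benjamini-Hochberg adjustment over all genes, and the lowest was 0.532. The background was low as well, since 5 of the 18605 genes tested passed (0.0269%). At an unadjusted limma p under 0.05, 2 members, the mitotic kinesin Kif11 and the kinetochore protein Cenpf, were higher in Card9-/- (background 2.64% of genes) and 0 were lower (background 4.59%). Both passed the detection filter only through the Card9-/- group, in which they are high, so their count supports nothing. Of the 28 members well above background on all 8 arrays, 0 had an unadjusted p under 0.05. The 4 arrays of a genotype lay wholly apart from the other 4 for 0 members and for 5.21% of all genes. By sign alone 24 members lay higher in Card9-/- and 9 lower, a share of 72.7% against 43.7% of all genes. The median difference was 0.20 over the 33 members and -0.088 over all genes tested.

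That tilt towards Card9-/- rested largely on 1 array, since Card9-/- replicate 1 gave the highest level of the 8 arrays for 21 of 33 members (63.6%), while it was highest for 12.6% of all genes tested. Without it, 14 of 33 members lay higher in Card9-/- (42.4%, against 42.2% of all genes), and the median difference turned to -0.14. Leaving out Card9-/- replicate 3 or 4 instead raised the median to 0.37 and 0.34, and leaving out any other array gave 0.13 to 0.27. Without the library labelled wt replicate 1 it was 0.23, with 18 of 33 members higher. Within slide 1, which sets Card9-/- replicate 4 alone against the 4 wt arrays, the median was -0.29 with 11 of 33 members higher. Scaling to each array's median in place of its 75th percentile left 17 members higher and 16 lower and moved the median of all genes to -0.26. Scaling to the percentile of detected probes left 27 higher and 6 lower and moved it to 0.15. Both scalings move all genes by the same amount, so the members' median stayed 0.28 above that of all genes. That gap was 0.22 with quantile normalization, 0.19 with normexp, -0.086 with no filter on dim probes, -0.031 without Card9-/- replicate 1 and -0.030 within slide 1.

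**Figure D1:**
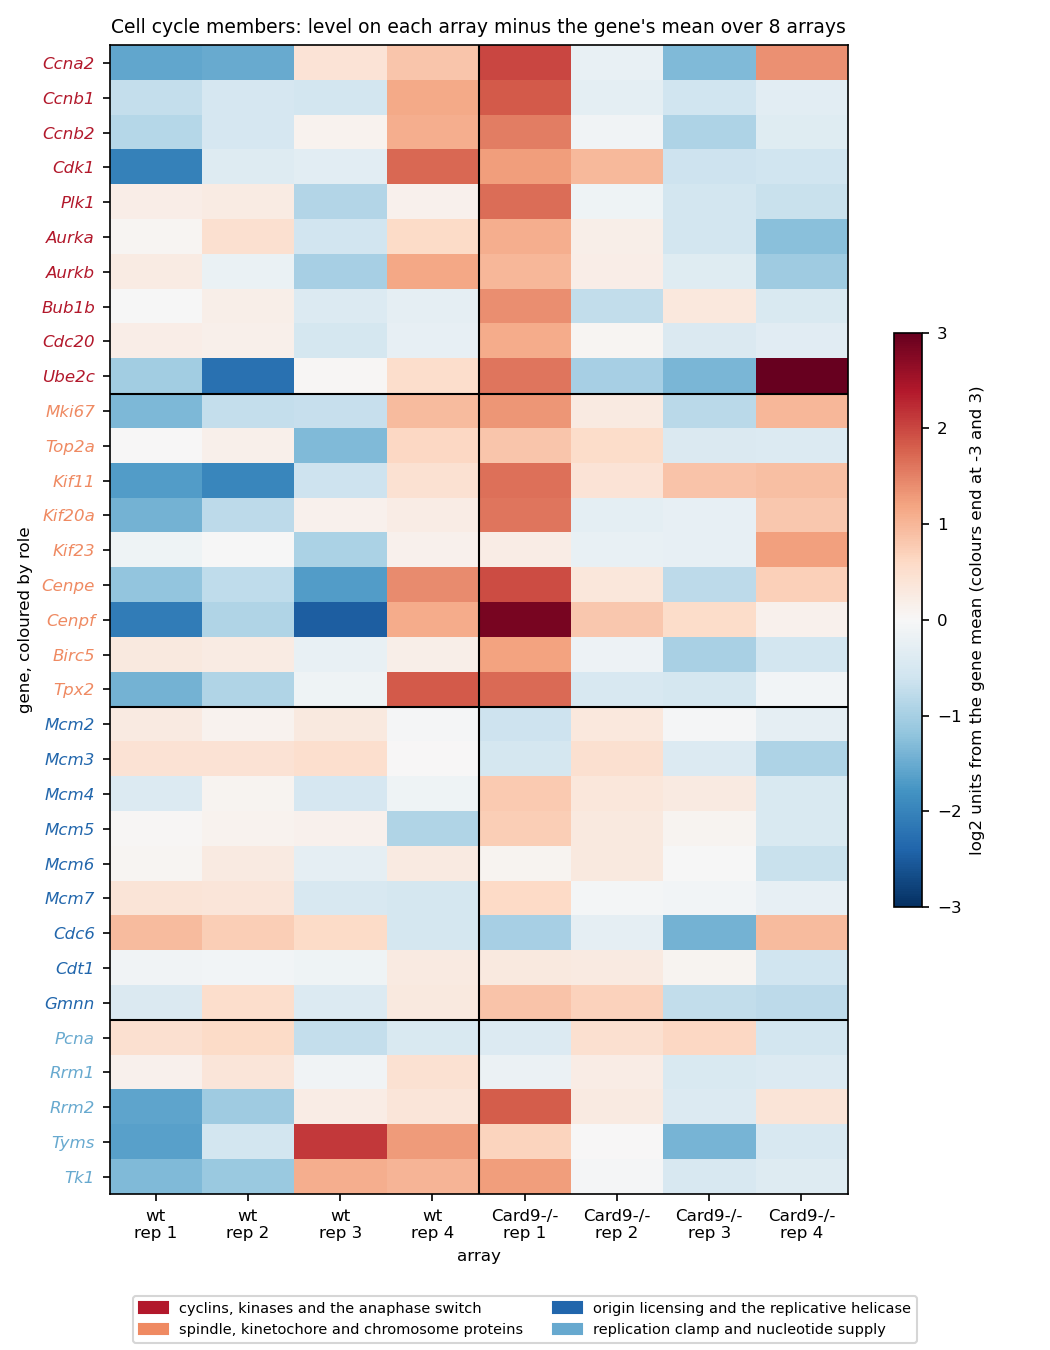
Heat map of the 33 tested members (rows, coloured by role) over the 8 arrays (columns), each value the log2 level minus the gene's mean over the 8 arrays. Card9-/- replicate 1 is the darkest red column for the mitosis genes in the upper rows, and the Mcm rows are pale throughout.

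The mitosis genes shared 1 high array: Card9-/- replicate 1 was the highest or second highest of the 8 arrays for 19 of the 19 tested. Within wt, replicate 4 was highest for 15 of the 19, and it joined Card9-/- replicate 1 at the top for 9. The mean level of the 19 mitosis members tested was -1.95 in the library labelled wt replicate 1 and -1.71, -1.80 and -0.48 in wt replicates 2 to 4. In Card9-/- it was 0.28, -1.18, -1.67 and -1.003. Card9-/- replicate 1 stood highest and wt replicate 4 next, so each genotype held 1 high array, and the groups, at -1.49 ± 0.68 for wt and -0.89 ± 0.83 for Card9-/- (SD, n = 4 each), overlapped. For 14 of these 19 genes the highest array was Card9-/- replicate 1. The 14 replication members averaged 1.24, 1.49, 1.61 and 1.54 in the wt libraries and 1.75, 1.68, 1.13 and 1.09 in Card9-/-, or 1.47 ± 0.16 and 1.41 ± 0.35 (SD, n = 4 each). Their levels crossed between genotypes, and Card9-/- replicate 1 was highest for 7 of 14. The median difference was 0.32 for the mitosis members, 0.029 without Card9-/- replicate 1, 0.51 and 0.58 without Card9-/- replicates 2 and 3, and 0.75 without wt replicate 4. For the replication members it was 0.014, and lay between -0.18 (without Card9-/- replicate 1) and 0.22 (without Card9-/- replicate 4) with an array left out. Within slide 1 the medians were -0.15 and -0.47. From lowest to highest array, the median mitosis member spanned 2.56 log2 units and the median replication member 1.38, beside 2.17 for all genes. The low figure for replication belonged to the licensing and helicase genes, whose median span was 1.29, since that of the clamp and nucleotide genes was 2.59. Among genes well above background on all 8 arrays the spans were 2.55 for 15 mitosis members, 1.32 for 13 replication members and 1.91 for all genes.

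**Figure D2:**
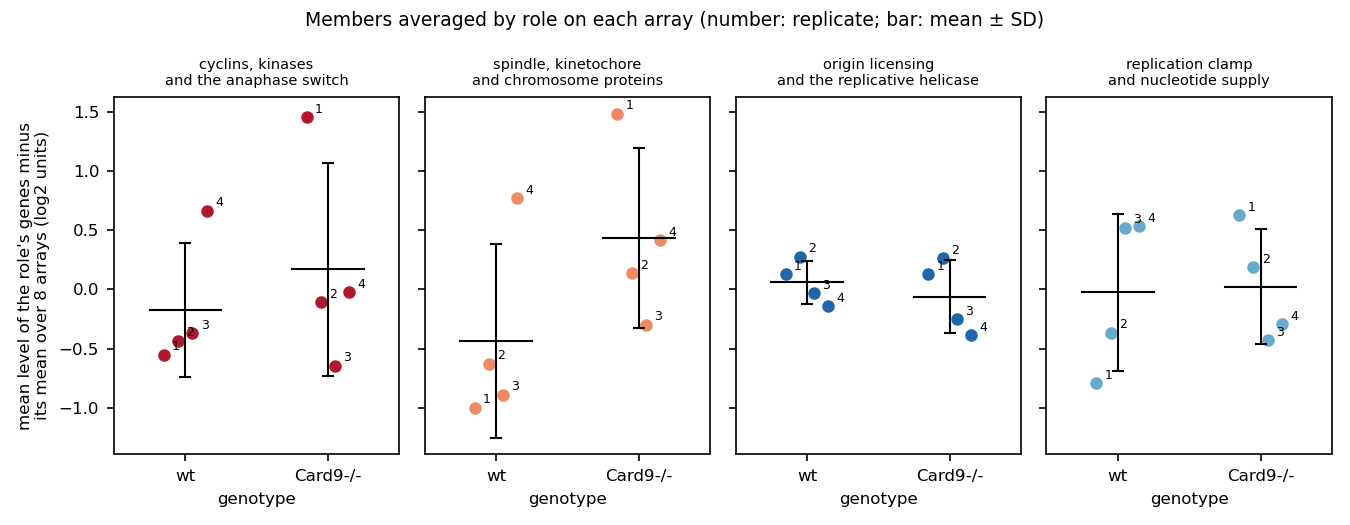
Mean level of the members of each role on each array, minus the role's mean over the 8 arrays, in log2 units. Points are arrays numbered by replicate, and bars are the mean ± SD of 4 arrays per genotype. Card9-/- replicate 1 and wt replicate 4 stand apart in both mitosis roles, and the helicase panel spans 0.66 log2 units in all.

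Promoters were set beside this pattern because genes of mitosis are known to share a CCAAT box and a CHR element, and genes of replication an E2F element. RefSeq promoters (GRCm38.p6) were at hand for 28 of the 34 members and were searched on both strands from 250 bases before to 50 bases after the start. The letters searched were CCAAT for the CCAAT box, TTTGAA for the CHR element, and TTGGCGC for the E2F element, which was also searched as TTCGCGC and, with other letters inside, as TTCCCGC or in the form TTGCCGC. The CCAAT box lay in 15 of 16 mitosis promoters and 8 of 12 replication promoters, and in 37.4% of 32851 promoters of that length. The CHR letters lay in 12 of 16 mitosis promoters and 1 of 12 replication promoters (Mcm2), beside 17.9% of all. The E2F letters had the opposite share, 3 of 16 mitosis promoters and 8 of 12 replication promoters, beside 9.57% of all. Within mitosis the letters did not sort the arrays: 9 of the 12 tested genes with a CHR match were highest on Card9-/- replicate 1, and so were 3 of 3 without. A match is a string of letters in this window and not a shown binding site.

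The 200 bases before the start are shown for the mitosis and replication members with the widest spread over the arrays, Ube2c and Cenpf, then Rrm2 and Tyms. Ccnb2 and Mcm6 were added after the matches were seen, as clear examples of the CCAAT and CHR pair and of the E2F element. Capitals mark the matches on either strand, so ATTGG is a CCAAT box and TTCAAA a CHR match read on the other strand. Some matches overlap: the first run of capitals in Ube2c is a pair of opposed CCAAT boxes, and each long run in Mcm6 is a pair of opposed E2F matches. The windows are chr2:164769729-164769928 (plus strand) for Ube2c, chr1:189688087-189688286 (minus) for Cenpf, chr9:70421555-70421754 (minus) for Ccnb2, chr12:24708054-24708253 (plus) for Rrm2, chr5:30073626-30073825 (minus) for Tyms and chr1:128359706-128359905 (minus) for Mcm6. Each is printed 5′ to 3′ in the direction of its gene.
Ube2c: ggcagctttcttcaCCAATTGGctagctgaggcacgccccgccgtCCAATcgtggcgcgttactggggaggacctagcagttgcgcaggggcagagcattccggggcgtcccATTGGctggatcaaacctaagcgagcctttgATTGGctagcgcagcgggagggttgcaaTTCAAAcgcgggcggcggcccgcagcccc
Cenpf: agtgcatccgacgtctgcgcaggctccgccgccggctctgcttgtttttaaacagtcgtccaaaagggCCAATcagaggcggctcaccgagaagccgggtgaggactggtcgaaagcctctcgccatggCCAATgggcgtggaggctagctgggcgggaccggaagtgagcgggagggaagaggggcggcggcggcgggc
Ccnb2: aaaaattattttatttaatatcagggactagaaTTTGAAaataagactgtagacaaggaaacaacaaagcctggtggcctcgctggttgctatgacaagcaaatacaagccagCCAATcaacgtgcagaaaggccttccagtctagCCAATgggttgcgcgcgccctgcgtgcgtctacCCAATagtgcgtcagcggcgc
Rrm2: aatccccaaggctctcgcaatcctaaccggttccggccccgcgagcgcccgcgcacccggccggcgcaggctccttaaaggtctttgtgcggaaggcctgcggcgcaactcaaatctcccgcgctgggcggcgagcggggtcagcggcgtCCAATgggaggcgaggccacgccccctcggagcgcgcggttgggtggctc
Tyms: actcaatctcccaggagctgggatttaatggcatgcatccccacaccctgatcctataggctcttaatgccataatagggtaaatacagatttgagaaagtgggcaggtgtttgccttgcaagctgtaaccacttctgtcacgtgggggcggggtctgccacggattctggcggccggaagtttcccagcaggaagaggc
Mcm6: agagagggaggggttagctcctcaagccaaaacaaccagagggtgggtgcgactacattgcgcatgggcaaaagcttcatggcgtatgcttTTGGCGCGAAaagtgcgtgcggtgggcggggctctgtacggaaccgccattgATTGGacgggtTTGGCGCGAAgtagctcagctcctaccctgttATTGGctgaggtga
Ube2c holds 5 CCAAT matches and 1 CHR match in these bases, Cenpf 2 CCAAT matches and Ccnb2 3 with 1 CHR match. Mcm6 has 4 E2F matches, overlaps counted, and 2 CCAAT matches. Rrm2 shows 1 CCAAT match. Its E2F match lies before the printed bases and the CHR match of Cenpf past the start, both inside the window searched. Tyms has none of the 3 motifs here.

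Of the genes that start mitosis, the cyclins were highest on Card9-/- replicate 1 and, within wt, on wt replicate 4. Ccna2, cyclin A, which partners the kinases of replication and mitotic entry, was at -2.58, -2.52, -0.61 and -0.19 in the wt libraries and at 0.99, -1.25, -2.35 and 0.36 in Card9-/-. The genotypes overlapped over most of that span, and the difference was 0.91 ± 0.84 (SE, n = 4 per group, limma adjusted p = 0.866), with 0.40 without Card9-/- replicate 1 and 1.51 without Card9-/- replicate 3. Ccnb1, cyclin B, was between -2.56 and -2.35 on 3 wt arrays and between -2.45 and -2.13 on 3 Card9-/- arrays, with wt replicate 4 at -0.71 and Card9-/- replicate 1 at -0.0028. Those 2 arrays lay well above the other 6, which differed little by genotype. Ccnb2, the second B-type cyclin, repeated the order, with 1.58 on wt replicate 4 and 2.03 on Card9-/- replicate 1 as its highest values and a difference of 0.083. Cdk1, the kinase both cyclins switch on, was dim and cleared background on 3 wt and 2 Card9-/- arrays. Its levels were -5.70, -4.07, -4.004 and -1.97 in the wt libraries and -2.42, -2.71, -4.31 and -4.29 in Card9-/-, again with overlap.

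The other mitotic kinases showed differences of mixed sign. Plk1, the polo-like kinase of mitotic entry and spindle assembly, was at -0.0099, 0.035, -1.09 and -0.081 in the wt libraries and 1.46, -0.34, -0.75 and -0.86 in Card9-/-, so its highest value again fell on Card9-/- replicate 1 and the rest overlapped. Aurka, the kinase of centrosomes and spindle poles, differed by -0.28 ± 0.54 (SE), and Aurkb, the kinase that corrects chromosome attachment, by -0.11 ± 0.58. Neither difference exceeded its error. Bub1b, a checkpoint protein that restrains anaphase, was at -1.71 on Card9-/- replicate 1 and between -3.83 and -2.77 on the other 7 arrays, and was not well above background on 1 Card9-/- array. Bub1, its partner that was not tested, had levels of -6.45, -4.58, -3.97 and -2.03 in the wt libraries and -1.91, -3.65, -4.21 and -3.85 in Card9-/-. Its highest arrays were Card9-/- replicate 1 and wt replicate 4, as for Ccnb1 and Ccnb2.

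The anaphase switch was represented by Cdc20, the activator of the anaphase-promoting complex, and Ube2c, the enzyme that hands it ubiquitin. Cdc20 reached 1.35 on Card9-/- replicate 1 and stayed between -0.28 and 0.45 on the other 7 arrays, with a difference of 0.20 ± 0.43 (SE). Ube2c had the widest spread of all members, 5.72 log2 units: -0.45, -1.66, 0.62 and 1.11 in the wt libraries and 2.20, -0.42, -0.78 and 4.06 in Card9-/-. Unlike most mitosis genes it peaked on Card9-/- replicate 4. Its difference of 1.36 ± 1.08 (SE, adjusted p = 0.850 by limma) was 0.43 without Card9-/- replicate 4 and 2.04 without Card9-/- replicate 3, and the groups overlapped. The probe lies at chr2:164598016-164598075 (mm9). On Card9-/- replicate 4 the summed signal of the 12 red cell precursor markers was also the highest of the 8 arrays, 6245 against 248 to 2127 in wt and 947 to 1676 in the other Card9-/- arrays. The part of such cells in the Ube2c value was not tested.

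Of the 9 spindle, kinetochore and chromosome genes tested, 8 lay higher in Card9-/-, beside 43.7% of all genes, with a median of 0.90, and none passed the test. Without Card9-/- replicate 1 the count was 7 of 9 and the median 0.55, and it was 0.60 without the library labelled wt replicate 1. Within slide 1 it was 7 of 9 and 1.26. Kif11 and Cenpf, which passed the filter only through Card9-/-, enter these figures. Of the 7 genes well above background on all arrays, 6 lay higher, beside 42.7% of all such genes, and the median was 0.49. Of the 10 cyclins, kinases and anaphase genes, 8 lay higher with a median of 0.23. Without Card9-/- replicate 1 their count was 3 and their median -0.20. Of the 8 well above background on all arrays, 6 lay higher, with a median of 0.18. Kif11, the kinesin that pushes spindle poles apart, was at -5.83, -6.11, -4.77 and -3.70 in the wt libraries and at -2.48, -3.73, -3.30 and -3.24 in Card9-/-. Only wt replicate 4 reached into the Card9-/- range. The Kif11 probe, at chr19:37495755-37495814 (mm9), cleared background on 1 wt and all 4 Card9-/- arrays, so 3 wt values are not measured levels and the size of the difference is not settled. It came to 1.91 on the processed signal and 0.74 after normexp background correction, and did not pass (limma adjusted p = 0.532). With weights for array quality it passed, with an adjusted p of 0.0223, where 3.16% of all genes passed too.

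Cenpf, a large protein of the kinetochore and nuclear matrix, was at -5.38, -4.19, -5.76 and -2.17 in the wt libraries and at -0.44, -2.48, -2.75 and -3.18 in Card9-/-. As with Kif11 only wt replicate 4 overlapped Card9-/-, and its level exceeded 3 of the 4 Card9-/- values. Its probe, at chr1:191465934-191465993 (mm9), cleared background on 2 wt and all 4 Card9-/- arrays, so this difference too is set partly by undetected wt values. It came to 2.17 on the processed signal, 0.92 under normexp and 1.20 within slide 1, and did not pass (limma adjusted p = 0.627). A second Cenpf probe, which failed the filter with 2 wt and 2 Card9-/- arrays above background, gave a difference of 0.42. Cenpe, the kinesin that carries chromosomes to the metaphase plate, was well above background on all arrays and showed the same 2 high arrays: -2.47, -2.03, -2.95 and 0.15 in the wt libraries and 0.68, -0.95, -2.07 and -0.57 in Card9-/-. Its difference of 1.098 ± 0.77 (SE) did not pass, at an adjusted p of 0.827 by limma, and was 0.63 without Card9-/- replicate 1 and 1.76 without wt replicate 4.

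Mki67, the chromosome surfactant known as a proliferation marker, was at 0.026, 0.66, 0.68 and 2.31 in the wt libraries and 2.68, 1.65, 0.56 and 2.37 in Card9-/-. High values fell on Card9-/- replicates 1 and 4 and on wt replicate 4, and the genotypes overlapped (difference 0.90 ± 0.61, SE, limma adjusted p = 0.823). Without wt replicate 4 it was 1.36, and without the library labelled wt replicate 1 it was 0.598. Kif20a, a kinesin of the cleavage furrow, differed by 0.93 ± 0.56 (SE) and Kif23, a kinesin of the spindle midzone, by 0.49 ± 0.45, both with overlap. Kif20a was at 0.55 without Card9-/- replicate 1, and Kif23 at 0.16 without Card9-/- replicate 4 and 0.25 without wt replicate 3. Tpx2, which anchors Aurora A on the spindle, peaked on wt replicate 4 at -0.90 and on Card9-/- replicate 1 at -1.05, with the other 6 arrays between -4.17 and -2.83. Top2a, the topoisomerase that untangles sister chromosomes, differed by 0.26, and Birc5, survivin, by -0.24. The probe chosen mattered for several members. The 4 Top2a probes gave differences from -0.092 to 1.06, the 3 Kif23 probes from -0.15 to 0.49, and the 2 Birc5 probes -0.24 and 0.24.

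**Figure D3:**
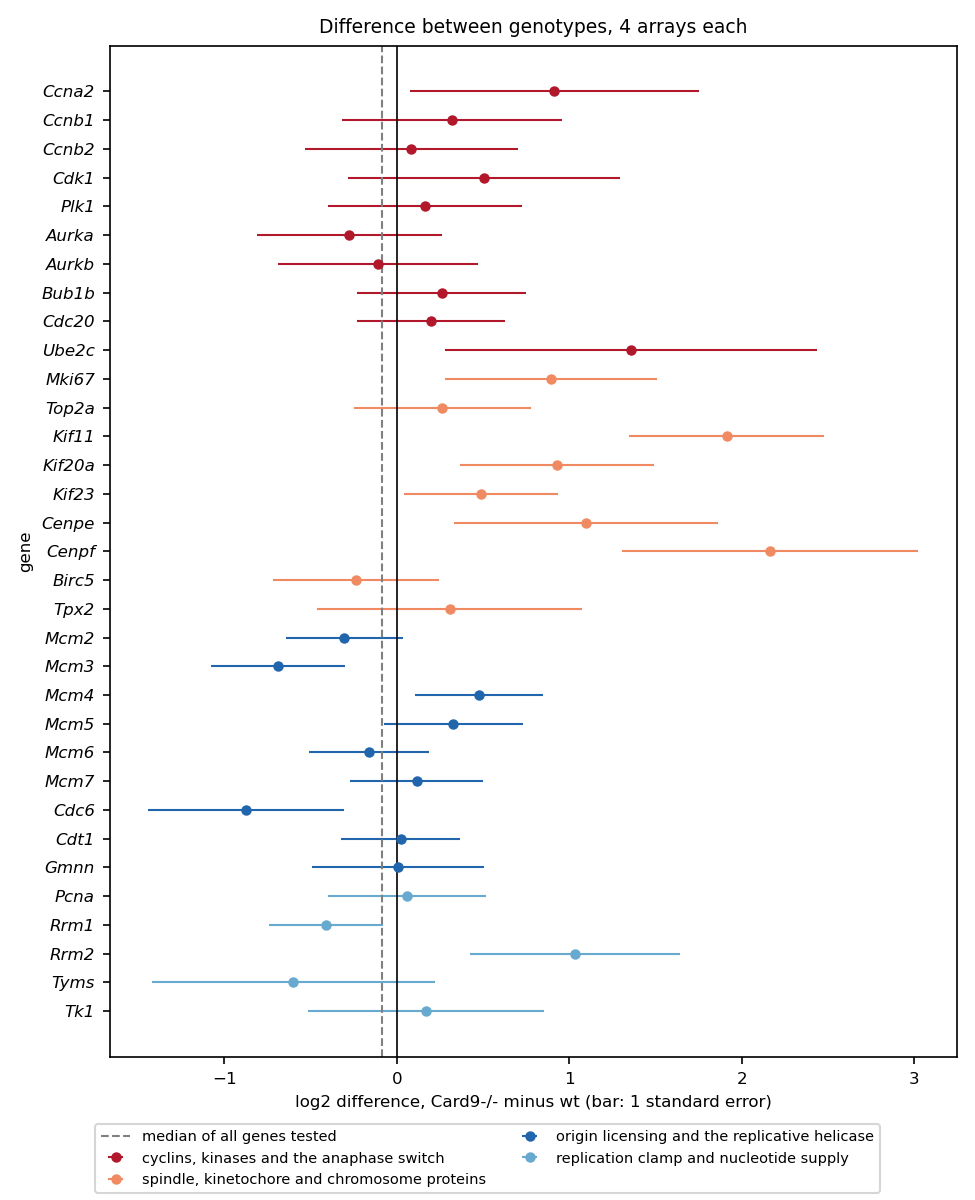
Difference between genotypes for each tested member (points, Card9-/- minus wt in log2 units, 4 arrays each) with 1 standard error, coloured by role; the dashed line is the median of all genes tested, -0.088. Kif11 and Cenpf, not detected on 3 and 2 of the wt arrays, lie farthest to the right, and the helicase and licensing genes sit between -0.87 and 0.48.

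Markers of other cells moved with the mitosis genes on Card9-/- replicate 1. Of the 11 natural killer cell markers, 10 were tested and 10 of 10 lay higher in Card9-/-. Their summed signal was 8.39 to 22.9 in wt and 215, 86.6, 27.0 and 73.2 in Card9-/- replicates 1 to 4. Card9-/- replicate 1 was thus the highest array for these markers, as it was for 14 mitosis genes. The defining receptor Ncr1 cleared background on 0 arrays labelled wt and 1 labelled Card9-/-. T cell markers were higher in Card9-/- for 15 of 15 genes. Their sums, 63.0 to 126 in wt and 194, 151, 130 and 104 in Card9-/-, overlapped, and Card9-/- replicate 1 was again the highest. Cd2, the brightest gene of the list, weighed most in these sums. The mean log2 levels of the 15 genes did not overlap, at 0.0925 to 0.729 in wt and 1.32 to 2.57 in Card9-/-. B cell markers were higher in Card9-/- for 10 of 11 genes, and their sums overlapped too, at 176 to 437 in wt and 266 to 378 in Card9-/-. On wt replicate 4, the other array with high mitosis levels, natural killer and T cell sums were 20.5 and 120, both inside the wt range, and the neutrophil sum was 706 against 156 to 320 on the other wt arrays. The neutrophil sum was 98.2 on Card9-/- replicate 1, the lowest of the 8, and 323 to 880 on the other Card9-/- arrays. The part of any of these cells in the mitosis result was not tested. In such bulk RNA, fewer cells of a type and less RNA per cell cannot be told apart.

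The remaining lists did not single out Card9-/- replicate 1 as the highest array. Monocyte sums were 361 to 816 in wt and 358 to 492 in Card9-/-, and dendritic cell sums 191 to 344 and 184 to 283. Mast cell sums ran from 45.2 to 424 and from 22.8 to 359, fibroblast sums from 1.84 to 22.1 and from 3.31 to 14.5, mesothelial sums from 1.05 to 7.18 and from 1.56 to 3.39, and fat cell sums from 0.891 to 96.8 and from 1.37 to 7.08. In the red cell precursor list, 9 of 9 tested genes lay higher in Card9-/-. Klf1, the defining transcription factor of that list, cleared background on 0 of 8 arrays, and Epb42 and Rhag on 1 Card9-/- array each. In the fat cell list Adipoq cleared background on 0 of 8 arrays. On wt replicate 3, which had the highest monocyte and fat cell sums, the brightest genes of these lists were Fn1, at 8.87, and Fabp4, at 6.51.

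**Figure D4:**
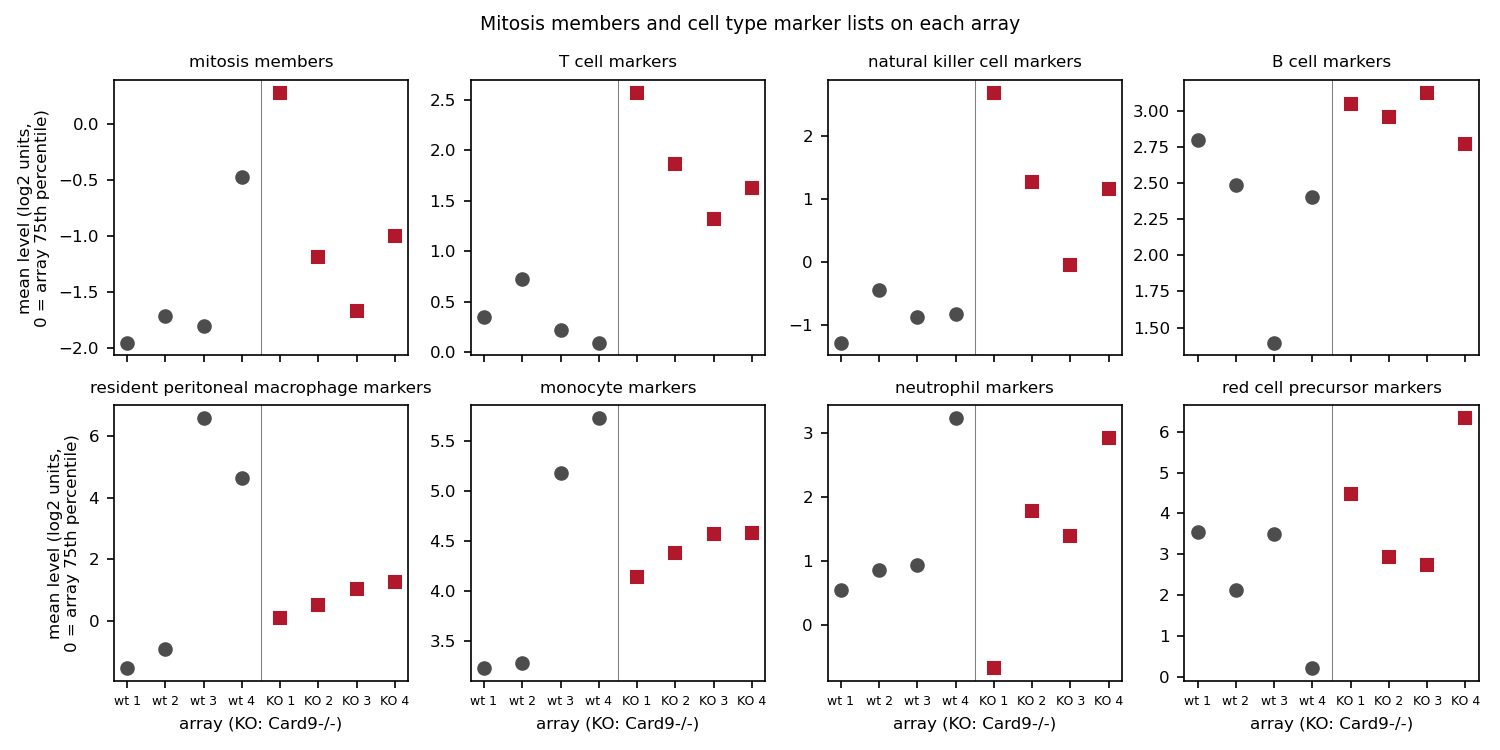
Mean log2 level, relative to the array's 75th percentile at 0, of the mitosis members and of 7 marker lists on each array (circles wt, squares Card9-/-, each panel with its own scale). Card9-/- replicate 1 is highest for the mitosis members and for the T cell and natural killer cell lists, and the resident macrophage markers separate wt replicates 3 and 4 from the other 6 arrays.

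Among the replication genes, the helicase subunits varied little and in both directions. Mcm2 to Mcm7 form the ring that unwinds DNA ahead of the fork. Mcm2 was at 0.60, 0.44, 0.62 and 0.29 in the wt libraries and at -0.29, 0.66, 0.29 and 0.075 in Card9-/-, with the lowest value on Card9-/- replicate 1. Mcm3 was at 2.79, 2.77, 2.85 and 2.37 in the wt libraries and 1.82, 2.84, 1.95 and 1.42 in Card9-/-. All but 1 of its Card9-/- values lay below wt, and its difference of -0.69 ± 0.39 (SE, limma adjusted p = 0.768) did not pass. The 4 Mcm3 probes ranged from that value to 0.0017. Mcm4 went the other way, at 2.40, 2.90, 2.31 and 2.68 in the wt libraries and 3.60, 3.15, 3.08 and 2.36 in Card9-/-, with a difference of 0.48 ± 0.37 (SE) and an adjusted p of 0.846 by limma. Here Card9-/- replicate 4 lay inside the wt range and the other 3 above it. Mcm5 differed by 0.33, Mcm6 by -0.16 and Mcm7 by 0.12, each less than its standard error. With each array left out, Mcm2 lay between -0.46 and -0.15, Mcm3 between -0.97 and -0.49, Mcm4 between 0.29 and 0.71 and Mcm5 between 0.081 and 0.53.

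The loaders of the helicase were likewise close between genotypes, with Cdc6 as the exception in size on the processed signal only. Cdc6 was at -1.33, -1.55, -1.70 and -2.80 in the wt libraries and -3.28, -2.55, -3.69 and -1.33 in Card9-/-. Low values fell on Card9-/- replicates 1 and 3, while Card9-/- replicate 4 matched the highest wt level, and the difference was -0.87 ± 0.57 (SE, limma adjusted p = 0.808). Within slide 1 it was 0.51, without Card9-/- replicate 4 -1.33 and without Card9-/- replicate 3 -0.55. After normexp background correction it was -0.082. This Cdc6 probe cleared background on 4 wt and 3 Card9-/- arrays. A dimmer Cdc6 probe that also passed the filter, above background on 4 wt and 2 Card9-/- arrays, gave a difference of -0.94. On that probe Card9-/- replicate 4 was the lowest of the 8 arrays, at -5.76, so the place of this array depends on the probe. Cdt1 stayed between 3.42 and 4.30 on all 8 arrays and differed by 0.022 ± 0.34 (SE), and Gmnn, whose product binds Cdt1, by 0.0066 ± 0.50. The genotypes overlapped for both genes.

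The clamp and the nucleotide enzymes fell into a steady and a variable set. Pcna stayed between 3.92 and 5.24 and differed by 0.059 ± 0.46 (SE), and Rrm1, the large subunit of ribonucleotide reductase, by -0.41 ± 0.33. Rrm2, the small subunit that is made mainly in dividing cells, was at -1.47, -0.94, 0.34 and 0.49 in the wt libraries and 1.94, 0.39, -0.29 and 0.52 in Card9-/-. Its highest array was again Card9-/- replicate 1, and its difference of 1.03 ± 0.61 (SE, limma adjusted p = 0.786) did not pass and was 0.60 without Card9-/- replicate 1. Tyms, thymidylate synthase, was at -1.97, -0.89, 1.78 and 0.93 in the wt libraries and 0.33, -0.33, -1.73 and -0.82 in Card9-/-. Tk1, thymidine kinase, was at -2.08, -1.87, 0.32 and 0.27 in the wt libraries and 0.51, -0.80, -1.24 and -1.15 in Card9-/-. For Rrm2, Tyms and Tk1 the wt group parted into a low pair, the library labelled wt replicate 1 and wt replicate 2, and a high pair, wt replicates 3 and 4. Not every probe that passed the filter showed this. Another Tyms probe was at -1.94, -1.72, 0.77 and -2.05 in the wt libraries, and another Tk1 probe at -3.31, -3.42, -3.45 and -2.64. The resident macrophage markers parted the wt arrays in the same way. So did the summed signals of the monocyte, mast cell, fibroblast, mesothelial and fat cell lists, while the B cell sums were lower on wt replicates 3 and 4. T cell sums parted like the markers, as did Cd2, the brightest gene of that list, at 5.18, 5.61, 6.66 and 6.64. The mean levels of the T cell list did not, at 0.35, 0.73, 0.22 and 0.0925 in the wt libraries. Dendritic cell sums were lower on wt replicates 3 and 4, but the list's mean levels were higher there, at -0.54, -0.33, 1.04 and 0.82. The part of any of these cells in the levels of Rrm2, Tyms and Tk1 was not tested.

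Other genes of the cell cycle, 122 in 5 lists by textbook role, were read in the same fit. Of the 112 tested, 0 passed (0.0269% of all genes did). At an unadjusted limma p under 0.05, 4 were higher and 3 lower, beside 2.64% and 4.59% of all genes, and 63 lay higher and 49 lower with a median difference of 0.062. The genotypes lay wholly apart for 4 of the 112, beside 5.21% of all genes. The 45 other mitosis genes resembled the mitosis members in sign, with 28 of 37 higher, beside 43.7% of all genes, and a median of 0.20. Some of them, such as Cdca3, Ect2 and Melk, also peaked on Card9-/- replicate 1, and others elsewhere, such as Nusap1 on Card9-/- replicate 4. Their count without Card9-/- replicate 1 was not taken. The 40 other replication genes gave 18 of 39 higher and a median of -0.088. The G1 cyclins and kinases gave 4 of 9, the kinase inhibitors and pocket proteins 5 of 10, and the E2F, B-Myb and FoxM1 factors 8 of 17.

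In each list the gene with the smallest p per direction is named, and none of them passed. Cdc25b, a phosphatase that activates Cdk1, was at -1.50, -2.75, -2.05 and -2.10 in the wt libraries and 0.056, -0.99, -0.86 and 1.15 in Card9-/-. Its genotypes did not overlap (difference 1.94 ± 0.53, SE, limma adjusted p = 0.532). Gins3, a subunit of the replicative helicase complex, was at 4.24, 4.64, 4.33 and 4.63 in the wt libraries and 1.90, 3.61, 1.80 and 3.54 in Card9-/-, also without overlap (difference -1.75 ± 0.50, SE, limma adjusted p = 0.532). Cdc7, the kinase that fires origins, differed by 1.06, and Cks2, a small subunit of Cdk complexes, by -0.81. E2f6, a repressor of the E2F family, differed by -1.23 with an adjusted p of 0.532 by limma, and Tfdp2, an E2F partner, by 1.97 with an adjusted p of 0.766. Tfdp2 was highest on Card9-/- replicate 4, at 5.68, and lowest on wt replicate 4, at -0.52. The red cell precursor sum was highest and lowest on the same arrays, and the part of such cells in the Tfdp2 value was not tested. The pocket protein Rb1 differed by 0.80 and the inhibitor Cdkn2b by -1.74. Among the G1 kinases, Cdk2 differed by 0.54 and Cdk4 by -0.56.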

How the data were processed

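Each deposited scanner file lists spot intensity for 1 array, read and corrected for background by Agilent Feature Extraction 10.7.1.1 without scaling between arrays, per the file headers. A matrix of log2 values that the authors deposited served only as an alternative, through the 49670 rows whose values matched their probe, and how it was scaled is not stated in the labels. For this report control and outlier spots were left out, log2 processed signal was set relative to the 75th percentile of each array, and a probe was kept if well above background on 3 of 4 arrays of either group (28169 probes). The brightest probe stood for each of 18605 genes. Genes outside the member list were named by accession (32938 probes), symbol (10216) or synonym (519) and otherwise as filed (12869). Probe coordinates are those of the files, on mm9, and promoter coordinates are on GRCm38.p6.

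The test was limma 3.58.1 in R 4.3.3, two-sided, with Benjamini-Hochberg adjustment over all genes at 0.05, after a check on simulated data. All members are described by role, and in each pathway list the gene with the smallest p per direction is named where none passes. Members and lists were chosen with earlier results of these data known. Alternatives changed scaling, background correction, filter, probe rule, blocks, array weights, moderation and source, or left out an array.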

Additional observations from a re-analysis of the deposited data

Results flagged for a closer look

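For 6 of 66 groups of 4 arrays examined (33 members in 2 genotypes, 9.09%), 1 array lay far from the other 3 by Dixon's criterion, which chance meets in about 1 in 20 groups. Ccnb1 was at -0.71 on wt replicate 4, with the other wt arrays from -2.56 to -2.35, and at -0.0028 on Card9-/- replicate 1, with the other Card9-/- arrays from -2.45 to -2.13. Plk1 was at -1.09 on wt replicate 3, with the others from -0.08 to 0.0352. On wt replicate 4, Mcm3 was at 2.37 against 2.77 to 2.85, Mcm5 at -0.22 against 0.713 to 0.807, and Cdt1 at 4.30 against 3.90 to 3.92.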

How the results depend on the processing

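Of the 33 members, 11 kept the sign of their difference under all of the 22 alternatives in which they were tested: Ccna2, Ube2c, Mki67, Kif11, Kif20a, Cenpe, Cenpf and Rrm2 above 0, and Mcm2, Mcm3 and Rrm1 below 0. The number of members called was 0 under every alternative but array weights, which called 1 member, Kif11, and 587 genes in all. The cause of the changes below was not tested. The replicate numbers did not pair the arrays, since same-numbered arrays deviated together at r = -0.13, 0.253, -0.12 and -0.28; the fit with the replicate number as a block called 0 members, with a median of 0.197, and 3 genes. The median over members was -0.14 without Card9-/- replicate 1 and -0.29 with the slide block, and otherwise lay between 0.0212 (median scaling) and 0.440 (percentile of detected probes).

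These differences turned sign. With the slide block, and equally within slide 1, which rests on Card9-/- replicate 4: Ccnb1 -0.15, Ccnb2 -0.31, Cdk1 -0.36, Plk1 -0.58, Bub1b -0.33, Cdc20 -0.24, Top2a -0.29, Mcm4 -0.21, Mcm5 -0.29, Mcm7 -0.19, Cdc6 0.510, Cdt1 -0.58, Gmnn -0.78, Pcna -0.53 and Tk1 -0.31. With array weights: Plk1 -0.24, Aurkb 0.122, Bub1b -0.22, Cdc20 -0.11, Kif23 -0.020, Mcm7 -0.32, Gmnn -0.047, Pcna -0.17 and Tyms 0.411. Median scaling, and the percentile of detected probes, shift all genes by 1 constant, so turns under them show only that a difference was small. With median scaling: Ccnb2 -0.093, Plk1 -0.013, Mcm7 -0.060, Cdt1 -0.15, Gmnn -0.17, Pcna -0.12 and Tk1 -0.0065. With wt replicate 2 and the library labelled wt replicate 1 averaged: Ccnb2 -0.13, Tpx2 -0.030, Cdt1 -0.0089 and Tk1 -0.21. With the percentile of detected probes: Aurkb 0.136, Birc5 0.0067 and Mcm6 0.0813. With normexp: Aurkb 0.223, Cdt1 -0.19, Gmnn -0.067 and Pcna -0.041. Averaging the probes of each gene: Birc5 0.0031 and Gmnn -0.038. Mcm6 was 0.206 with quantile normalization and 0.176 in the authors' matrix.

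With each array left out in turn, differences that turned sign ranged from -0.24 to 0.753 for Ccnb1, -0.42 to 0.460 for Ccnb2, -0.085 to 1.16 for Cdk1, -0.37 to 0.409 for Plk1, -0.68 to 0.0982 for Aurka, -0.46 to 0.265 for Aurkb, -0.16 to 0.550 for Bub1b, -0.14 to 0.374 for Cdc20, -0.13 to 0.516 for Top2a, -0.67 to 0.0464 for Birc5, -0.21 to 0.972 for Tpx2, -0.28 to 0.0371 for Mcm6, -0.066 to 0.266 for Mcm7, -0.070 to 0.223 for Cdt1, -0.28 to 0.268 for Gmnn, -0.17 to 0.256 for Pcna, -1.25 to 0.0073 for Tyms and -0.25 to 0.557 for Tk1. Signal over background limits Kif11, Cenpf, Cdk1, Bub1b and Cdc6, which were not well above background on every array.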
